A study of Sus scrofa with 36 samples.

Results

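The 36 genes described here encode the glycolytic enzymes from hexokinase to lactate dehydrogenase, the PFKFB enzymes that set the pace of phosphofructokinase, glucose and lactate carriers, PDK1, and the enzymes that build and break down glycogen. The rule that picks them is a fixed list of pig gene symbols and reads no measured value, although the list was drawn up with earlier results of these data known. Each symbol was matched to the symbols that a table of gene names gives for the gene IDs of the count table. Of the 36 genes, 32 had a row among the 25880 rows of the table, and 31 of these had enough counts to be tested. PFKFB1 had at most 2 reads in any library and was not tested, and SLC2A1, SLC2A3, SLC16A1 and PGM1 had no row under their symbols.

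The study measured polyA RNA of pig hearts after permanent ligation of branches of the left anterior descending and circumflex coronary arteries, which produces a myocardial infarction, or after sham surgery. Yorkshire-landrace pigs were operated on at day 2 of life (called Young here, as in the labels) or at day 14 (Old), and harvested 1 day (Early) or 1 week (Late) after the operation. Ages at harvest were 3 days (Young Early), 9 days (Young Late), 15 days (Old Early) and 21 days (Old Late). Each age and time has 3 sham pigs, sampled in the anterior left ventricular wall, and 3 infarcted pigs, each sampled in the infarct zone (IZ) and in the border zone (BZ) beside it. This gives 12 groups of 3 libraries, with infarct and border zone taken from the same infarcted hearts and both compared with the same sham hearts. The labels name no genetic modification, describe a thoracotomy under anaesthesia, and give Ketoprofen as analgesic and Enrofloxacin as antibiotic for every animal, so sham hearts share these exposures. Old Late BZ replicate 3 carries different pig numbers in its title and its individual field.

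Glycolysis splits glucose into pyruvate in the cytosol and yields ATP without oxygen, and lactate dehydrogenase regenerates the NAD+ that keeps it running when pyruvate is not oxidised in mitochondria. Before birth the mammalian heart relies strongly on glycolysis and lactate. In the weeks after birth it turns to fatty acid oxidation, while many enzymes switch from broadly expressed isozymes (ENO1, PGAM1) to the muscle forms (ENO3, PGAM2, PFKM, PYGM). Glycogen is the local glucose store of cardiomyocytes, broken down mainly by glycogen phosphorylase, and ischaemic muscle draws on it within minutes.

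The libraries held 8.11 to 39.79 M counts (median 22.55 M), with RNA integrity numbers from 6.3 to 8.4, and no pair of libraries was identical. Values below are CPM, counts per M counts of the library, scaled by TMM, a normalisation that sets the bulk of genes equal between libraries. The TMM factors ranged from 0.578 to 1.658. Cardiomyocyte markers (TNNT2, MYH6, ACTC1, MYBPC3 and RYR2, which are 5 of the 9 listed) summed to at least 16600 CPM in every library, and skeletal muscle markers summed to at most 4.45 CPM. The library Young Early BZ replicate 2 stood apart: it had 39.79 M counts, the lowest TMM factor (0.578) and a median rank correlation of 0.901 with its own group, against 0.942 or more for the other libraries. Its group's calls, medians, level and marker sums are given with and without it. Tests are edgeR quasi-likelihood tests fitted over all 14537 genes with enough counts, and "rose", "fell" or "passed" mean an adjusted p (Benjamini-Hochberg over all those genes) under 0.05. The labels name separate pigs within each group.

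In the infarct zone the list split: the enolase ENO1, the lactate dehydrogenase LDHA, the lactate exporter SLC16A3, the regulator PFKFB3 and the phosphorylase PYGL were among the members that rose, and the insulin-responsive glucose carrier SLC2A4 and the phosphorylase PYGB among those that fell. In the Young Early comparison of infarct zone with sham, 8 of 31 members rose (25.8%, against 15.2% of all genes tested) and 9 fell (29.0%, against 12%). Old Early hearts had 6 members higher (19.4%, against 19.5% of all genes) and 9 lower (29.0%, against 14.8%). In Young Late hearts 7 rose (22.6%, against 17.2%) and 4 fell (12.9%, against 13%). Old Late hearts had 6 members higher (19.4%, against 25.1%) and 16 lower (51.6%, against 24%). The share that rose was thus near or below the background at 2 of the 4 ages and times, and the share that fell exceeded it at all but Young Late. The median log2 fold change of the 31 members was -0.24, -0.07, -0.08 and -0.45 in Young Early and Old Early, then Young Late and Old Late hearts, beside 0.08, 0.00, 0.03 and -0.04 over all genes. RNA integrity numbers were 7.8 to 8.4 in Old Late sham and 7.1 to 7.6 in the Old Late infarct zone, without overlap. With the integrity number as a covariate the Old Late calls of ALDOC, GBE1, PGK1 and GYS1 were lost (adjusted p 0.162, 0.108, 0.124 and 0.0892), and 18 of the 22 were kept.

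ENO1, LDHA, SLC16A3, PFKFB3 and PYGL rose in the infarct zone at all 4 ages and times, and SLC2A4 and PYGB fell at all 4. HK2 and ALDOC rose at 2 of the 4. PFKM, ALDOA, PGAM2, ENO3, LDHB, PFKFB2, PFKFB4 and PYGM fell at 2 or 3 of the 4. Only PDK1 moved in both directions, and PFKP, TPI1, ENO2 and PKM passed at none of the 4. These 4 comparisons use separate pigs.

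The balance of higher and lower calls depended on the scaling. With library totals in place of TMM, an alternative chosen after seeing the data, the median of all genes moved up by 0.61, 0.40, 0.19 and 0.57 on the log2 scale in Young Early and Old Early, then Young Late and Old Late infarct zones. In the same order 14, 13, 7 and 8 of 31 members then rose, beside 42.1%, 32.1%, 21.1% and 40.8% of all genes, and 5, 4, 4 and 10 fell, beside 3.25%, 3.88%, 5.65% and 7.29%. ENO1, LDHA, SLC16A3, PFKFB3 and PYGL still rose and SLC2A4 and PYGB still fell in all 4. HK1 (0.65, adjusted p 0.013), PFKP (0.99, 0.000568) and PGK1 (0.94, 0.0127) rose in Young Early hearts under library totals and did not pass under TMM. PFKM was lost in Young Early (-0.69, adjusted p 0.171) and Old Early hearts (-0.99, 0.062), and PFKL (-0.30, 0.317) and ALDOA (-0.23, 0.391) in Young Early hearts. PFKFB4 was lost in Young Early (0.267) and Old Early hearts, and PFKFB2 (0.0535), LDHB (0.159) and PGAM2 in Old Early hearts. In Old Late hearts the falls of LDHB (0.612), GPI, PDK1, GBE1, PGK1 and GYS1 were lost.

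**Figure D1:**
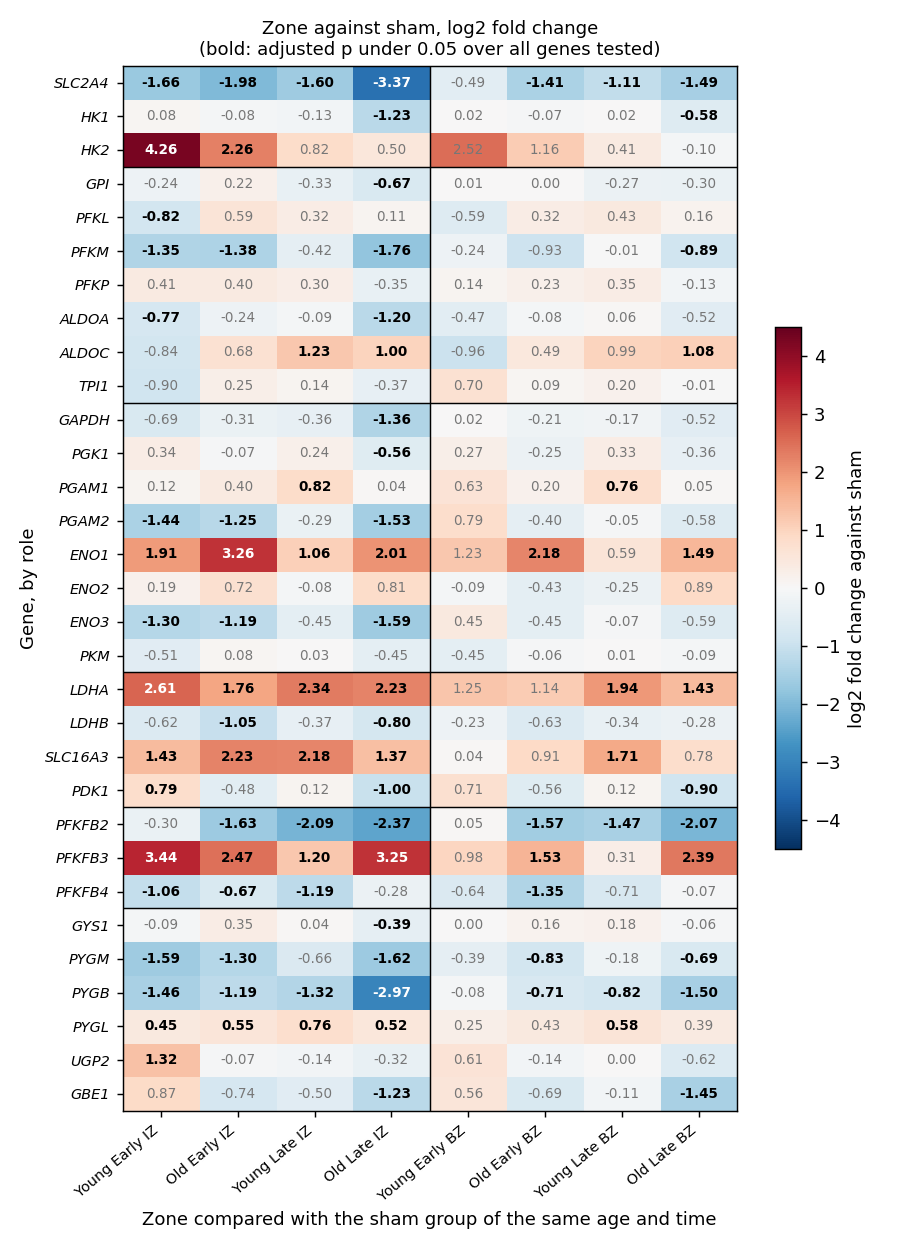
Colour map of the log2 fold change of each tested member (rows, in order of role) in the infarct zone (first 4 columns) and the border zone (last 4 columns) against the sham hearts of the same age and time, with the value in each cell and bold type for an adjusted p under 0.05. ENO1, LDHA, SLC16A3, PFKFB3 and PYGL are above 0 and bold in all 4 infarct zone columns, and SLC2A4 and PYGB are below 0 and bold in all 4.

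Infarct tissue holds other cells beside cardiomyocytes, and marker genes also differed between sham and infarct zone. Summed cardiomyocyte markers were 72800 to 86100 CPM in Young Early sham hearts and 21300 to 32300 CPM in the infarct zone. The corresponding ranges were 53200 to 57300 and 21200 to 33400 CPM in Old Early, 60200 to 85500 and 40800 to 57200 CPM in Young Late, and 60300 to 69800 and 16600 to 25500 CPM in Old Late hearts. Of the 5 markers, 4, 4, 3 and 4 fell in Young Early and Old Early, then Young Late and Old Late infarct zones. Neutrophil markers (4 of 7 listed found) summed to at most 1.01 CPM in every sham library and to 22.5 to 36.7, 34.6 to 299, 47.4 to 338 and 160 to 387 CPM in the same 4 infarct zones, where 4, 4, 3 and 4 of the 4 rose. Of 8 macrophage markers 3, 4, 8 and 7 rose, and of 8 fibroblast markers 5, 7, 7 and 8 rose, beside 15.2%, 19.5%, 17.2% and 25.1% of all genes. Summed macrophage markers overlapped in Young Early hearts (145 to 212 CPM in sham, 178 to 222 CPM in the infarct zone). Smooth muscle and pericyte markers averaged 804, 641, 528 and 416 CPM in the 4 sham groups and 1000, 1730, 1900 and 2310 CPM in the infarct zones. Endothelial markers averaged 407, 320, 279 and 303 CPM in sham and 578, 763, 198 and 279 CPM in the infarct zones. The part of these markers in the results on glycolytic genes was not tested, and in bulk tissue fewer cells of a type and less RNA per cell cannot be told apart.

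Glucose enters the cardiomyocyte mainly through SLC2A4 (GLUT4), the insulin-responsive carrier, and is trapped as glucose 6-phosphate by HK1 and HK2. SLC2A4 (chr12:52628450-52634974 in the coordinates of the deposited table) fell in the infarct zone at every age and time, and HK2 rose there 1 day after surgery. In Young Late hearts SLC2A4 stood at 178, 260 and 198 CPM in sham and 47.2, 84.8 and 77.8 CPM in the infarct zone. In Old Late hearts it stood at 211, 176 and 255 CPM in sham and 18.7, 27.7 and 15.9 CPM in the infarct zone. Every infarct zone library lay below every sham library of its age and time, and the Old Late infarct zone was the lowest. The log2 fold changes were -1.66 ± 0.31 (SE) in Young Early, -1.98 ± 0.31 in Old Early, -1.60 ± 0.31 in Young Late and -3.37 ± 0.33 in Old Late hearts, with edgeR adjusted p of 0.000344, 2.56e-05, 3e-04 and 7.04e-09.

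HK2, the inducible hexokinase bound to mitochondria, had 1.83, 2.68 and 1.99 CPM in Young Early sham hearts and 45.9, 62.0 and 17.8 CPM in the infarct zone. Old Early sham hearts had 3.51, 8.43 and 3.63 CPM of HK2 and their infarct zone 37.9, 21.4 and 15.1 CPM. The groups did not overlap at either age 1 day after surgery, with log2 fold changes of 4.26 ± 0.72 and 2.26 ± 0.64 and edgeR adjusted p of 0.000139 and 0.00767. Without Old Early IZ replicate 1 the Old Early value was 1.82 and its adjusted p 0.0543. At 1 week the sham values of HK2 were wide (4.75, 35.6 and 13.4 CPM in Young, 8.30, 27.4 and 13.2 CPM in Old) and overlapped the infarct zone, with log2 fold changes of 0.82 ± 0.62 and 0.50 ± 0.60 that did not pass. HK1, the constitutive form, made up 93.4% or more of the hexokinase signal per kilobase in every group on average. It stood at 542, 623 and 510 CPM in Old Late sham hearts and 233, 278 and 204 CPM in the infarct zone, without overlap (log2 fold change -1.23 ± 0.19, edgeR adjusted p 3.82e-06). In the other 3 infarct zones HK1 differed from sham by -0.13 to 0.08 on the log2 scale and did not pass.

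Of the preparatory steps between glucose 6-phosphate and the trioses, PFKM fell in 3 of the 4 infarct zones, ALDOA in 2, and GPI and PFKL in 1 each, while ALDOC rose in 2. Phosphofructokinase commits sugar to glycolysis, and PFKM is its muscle subunit. PFKM stood at 656, 807 and 534 CPM in Young Early sham and 299, 180 and 307 CPM in the infarct zone. Old Late hearts had 708, 504 and 513 CPM in sham and 137, 220 and 151 CPM in the infarct zone. Neither pair of groups overlapped, and the log2 fold changes were -1.35 ± 0.36 (Young Early), -1.38 ± 0.36 (Old Early) and -1.76 ± 0.37 (Old Late), with edgeR adjusted p of 0.00732, 0.00421 and 0.000231. Young Late PFKM gave -0.42 ± 0.36 and overlapped sham. The liver subunit PFKL had 444, 421 and 250 CPM in Young Early sham and 191, 273 and 167 CPM in the infarct zone, which overlapped in 1 library of each, and fell by 0.82 ± 0.25 on the log2 scale (edgeR adjusted p 0.0156). That call was lost without IZ replicate 1 or 3 or Sham replicate 1 or 2 (adjusted p 0.0599 to 0.0959). PFKP, the platelet subunit, passed in no infarct zone under TMM.

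ALDOA, the muscle aldolase, had 4350, 4180 and 3390 CPM in Young Early sham against 2140, 2950 and 1900 CPM in the infarct zone. It fell there by 0.77 ± 0.24 on the log2 scale and by 1.20 ± 0.24 in Old Late hearts, where sham had 2030, 1860 and 2080 CPM and the infarct zone 1120, 779 and 698 CPM (edgeR adjusted p 0.0184 and 0.000161). Groups did not overlap in either comparison, and the Young Early call was lost without IZ replicate 1 or 3 or Sham replicate 1 or 2 (adjusted p 0.0516 to 0.104). ALDOC, the brain form, rose at 1 week, from 39.2, 15.6 and 8.37 CPM in Young Late sham to 51.9, 50.0 and 47.9 CPM in the infarct zone (log2 fold change 1.23 ± 0.39, edgeR adjusted p 0.0166). In Old Late hearts it went from 7.33, 15.6 and 11.9 to 29.2, 15.6 and 24.8 CPM, the groups meeting at one value (1.00 ± 0.39, adjusted p 0.0324). The ALDOC calls at 1 week were lost when any 1 of 3 libraries (Young) or of 4 libraries (Old) was left out, with adjusted p of 0.0523 to 0.112 and 0.0577 to 0.159. The Young libraries were IZ replicate 1 and Sham replicates 2 and 3, and the Old ones IZ replicates 1 and 3 and Sham replicates 1 and 3. GPI, the isomerase that follows hexokinase, fell in Old Late hearts only among the 4 comparisons (394, 340 and 423 CPM in sham, 297, 217 and 214 CPM in the infarct zone, log2 fold change -0.67 ± 0.20, adjusted p 0.00591, 0.0531 without IZ replicate 3 and 0.641 under library totals). Rows that overlap on the same strand were counted for GPI (with GARRE1), ALDOA (with PPP4C), ALDOC (with SPAG5) and TPI1 (with ENO2), so reads of such neighbours may be split between them.

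The ATP-yielding steps showed the clearest divergence of isozymes, at enolase. ENO1 (chr6:69385486-69401708), the form made in most tissues, rose at every age and time, while ENO3, the muscle form, fell in 3 of the 4 infarct zones. Young Early sham hearts had 267, 230 and 170 CPM of ENO1 and their infarct zone 713, 1120 and 671 CPM. Old Early hearts had 133, 101 and 96.2 CPM in sham and 1500, 625 and 1040 CPM in the infarct zone. Old Late hearts had 107, 105 and 108 CPM in sham and 505, 341 and 445 CPM in the infarct zone. No infarct zone library overlapped sham at any age or time. The log2 fold changes of ENO1 were 1.91 ± 0.35, 3.26 ± 0.37, 1.06 ± 0.35 and 2.01 ± 0.36 in Young Early and Old Early, then Young Late and Old Late hearts (edgeR adjusted p 0.00035, 6.17e-07, 0.021 and 3.44e-05). The Young Late call of ENO1 was lost without IZ replicate 1 (0.82, adjusted p 0.127) or Sham replicate 3 (0.92, adjusted p 0.0943).

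ENO3 stood at 2810, 2940 and 2480 CPM in Young Early sham and 1040, 1410 and 905 CPM in the infarct zone. In Old Late hearts it went from 2680, 2450 and 2330 CPM to 963, 886 and 630 CPM. Groups did not overlap, and ENO3 fell by 1.30 ± 0.38 (Young Early), 1.19 ± 0.37 (Old Early) and 1.59 ± 0.38 (Old Late) on the log2 scale, with edgeR adjusted p of 0.0118, 0.0148 and 0.000954. The first and second of these calls were lost without IZ replicate 3 of their group (-1.17, adjusted p 0.0652, and -0.97, adjusted p 0.0904). ENO2, the neuronal form, stayed at or below 16.8 CPM in every library and passed in no infarct zone.

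Phosphoglycerate mutase also has a muscle and a common form. PGAM2, the muscle form, had 552, 588 and 513 CPM in Young Early sham and 178, 301 and 131 CPM in the infarct zone, and 343, 277 and 303 against 162, 83.6 and 74.7 CPM in Old Late hearts. It fell by 1.44 ± 0.49, 1.25 ± 0.48 and 1.53 ± 0.49 on the log2 scale in Young Early, Old Early and Old Late hearts (edgeR adjusted p 0.0282, 0.0459 and 0.0107), without overlap. These calls were close to the threshold: the Young Early call was lost in 5 of 6 fits that left out 1 library (all but IZ replicate 2, adjusted p up to 0.137), the Old Early call in 6 of 6 (up to 0.164), and the Old Late call without IZ replicate 3 (0.0634). With the integrity number as a covariate the Young Early call was lost (0.0559). The Old Early call was lost with DESeq2 size factors, without the count filter and under library totals (up to 0.0768). PGAM1, the common form, rose in Young Late hearts only, from 384, 209 and 222 CPM in sham to 452, 512 and 474 CPM (log2 fold change 0.82 ± 0.26, edgeR adjusted p 0.017). That call was lost without IZ replicate 2, Sham replicate 2 or Sham replicate 3 (adjusted p 0.0516, 0.101 and 0.0881).

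GAPDH, often used as a reference gene, stood at 7080, 6310 and 6900 CPM in Old Late sham and 3180, 2520 and 2220 CPM in the infarct zone. It fell there by 1.36 ± 0.31 on the log2 scale (edgeR adjusted p 0.000731) without overlap, and gave -0.69 ± 0.31, -0.31 ± 0.31 and -0.36 ± 0.31 in Young Early, Old Early and Young Late hearts, which did not pass. PGK1, the first ATP-making enzyme, also fell in Old Late hearts, from 310, 301 and 299 CPM to 205, 218 and 192 CPM (log2 fold change -0.56 ± 0.23, adjusted p 0.0424), a call lost in 6 of 6 fits that left out 1 library (0.0742 to 0.176), and its value was 0.01 under library totals. PKM, pyruvate kinase, had 858 to 2360 CPM as group means and its values of -0.51 ± 0.20 (Young Early) and -0.45 ± 0.20 (Old Late) missed the threshold at adjusted p of 0.0555 and 0.0594. The PKM row overlaps a pair of unnamed rows on the same strand, and the counts do not separate its M1 and M2 splice forms.

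**Figure D2:**
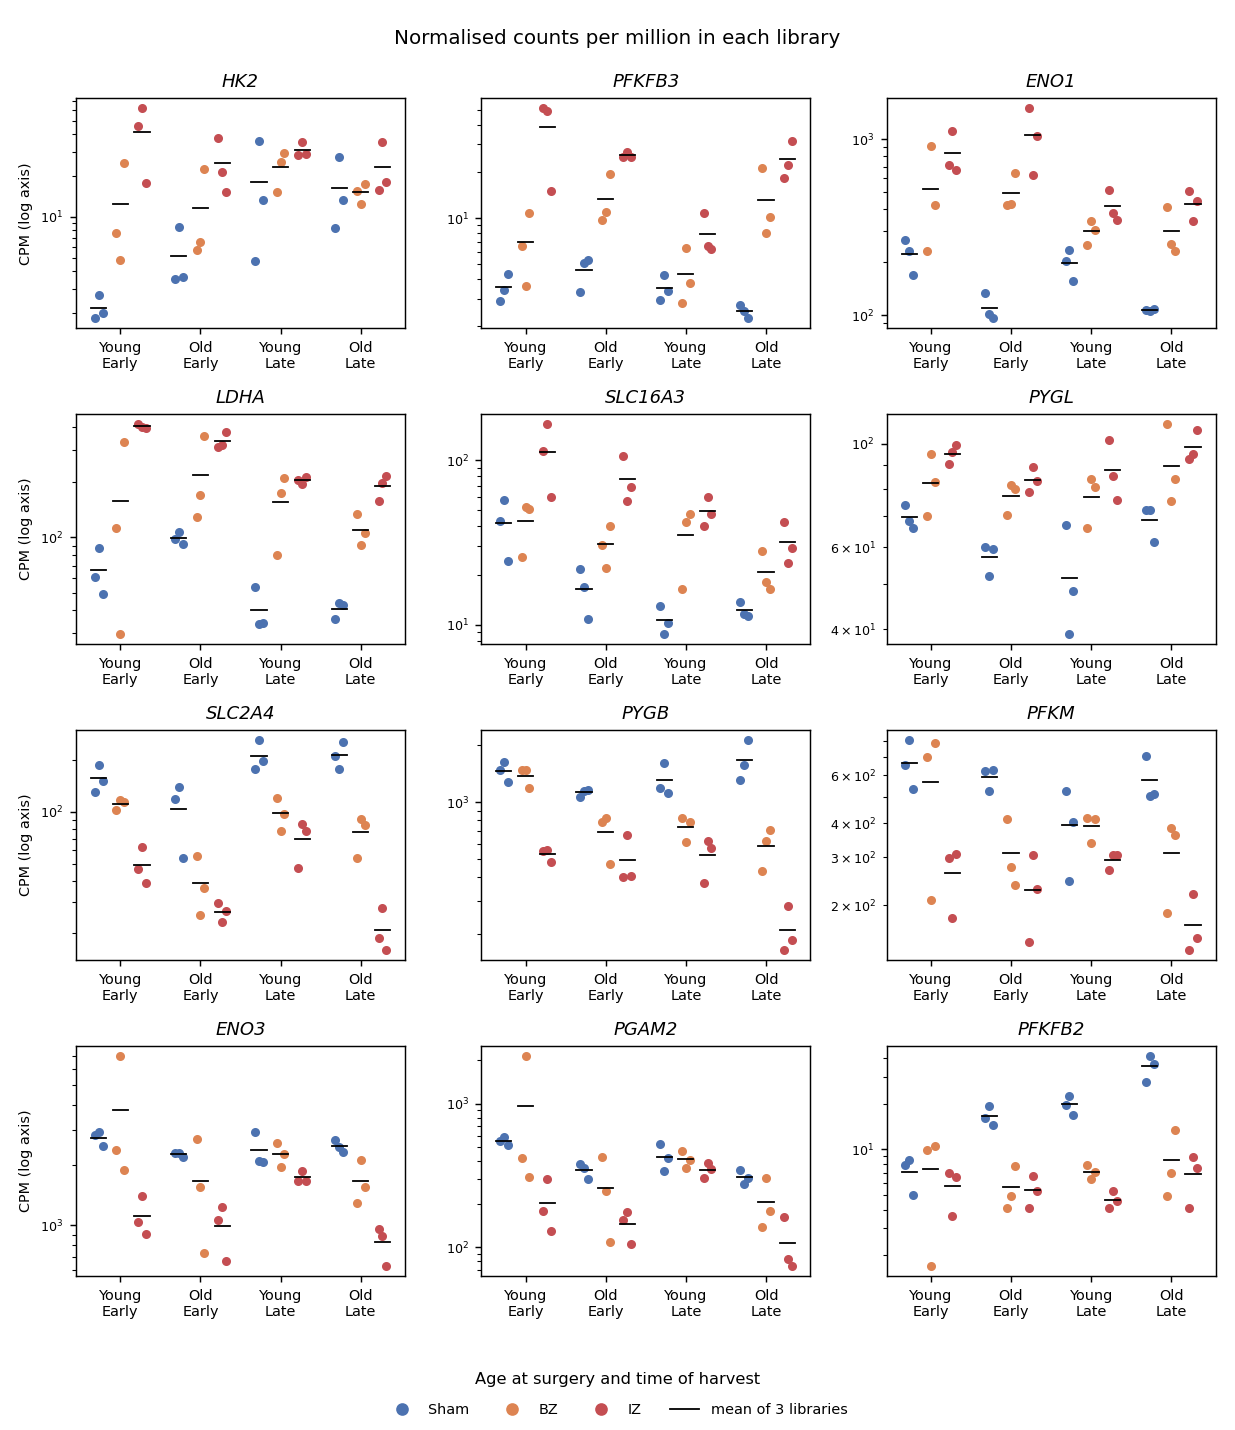
CPM of 12 members in each library on logarithmic axes, 1 panel per gene, with 1 point per library coloured by sham, border zone (BZ) or infarct zone (IZ) and a line at the mean of 3 libraries. For ENO1 and LDHA the infarct zone points lie above all sham points of the same age and time, and for SLC2A4 and PYGB below them.

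At the lactate steps LDHA and the lactate exporter SLC16A3 rose together at every age and time. LDHA (chr2:40813963-40826715) encodes the subunit that favours lactate formation, with a share of the family that is given per length below. Young Early sham hearts had 61.2, 88.0 and 49.3 CPM and their infarct zone 414, 401 and 396 CPM. Young Late hearts had 53.6, 33.6 and 34.0 CPM in sham and 205, 195 and 215 CPM in the infarct zone, and Old Late hearts 35.9, 44.2 and 42.6 against 159, 199 and 216 CPM. All infarct zone libraries exceeded all sham libraries of their age and time. The log2 fold changes were 2.61 ± 0.48, 1.76 ± 0.46, 2.34 ± 0.47 and 2.23 ± 0.47 in Young Early and Old Early, then Young Late and Old Late hearts, with edgeR adjusted p of 0.000306, 0.0041, 0.000499 and 0.000282.

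SLC16A3 (MCT4) exports lactate from glycolytic cells. It stood at 42.9, 57.8 and 24.5 CPM in Young Early sham and 114, 166 and 59.7 CPM in the infarct zone, and at 21.9, 16.9 and 10.8 against 106, 56.9 and 68.6 CPM in Old Early hearts. At 1 week it went from 13.0, 8.80 and 10.3 to 40.2, 59.7 and 47.1 CPM in Young hearts and from 13.8, 11.7 and 11.3 to 42.1, 23.9 and 29.2 CPM in Old hearts. The groups did not overlap in any of the 4 comparisons. SLC16A3 rose by 1.43 ± 0.38, 2.23 ± 0.40, 2.18 ± 0.40 and 1.37 ± 0.39 on the log2 scale (edgeR adjusted p 0.00717, 0.000101, 0.000198 and 0.00464). The Young Early call was lost without IZ replicate 2 (1.05, adjusted p 0.0515) or Sham replicate 3 (1.17, adjusted p 0.0534).

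The row with the symbol LDHB is a short row of 2 exon intervals and 1124 bp at chr2:12988754-12990030, with group means of 9.47 to 27.4 CPM. It fell in Old Early (-1.05 ± 0.31, edgeR adjusted p 0.0089) and Old Late infarct zones (-0.80 ± 0.30, adjusted p 0.0303), the latter call being lost without IZ replicate 1 or 3 or Sham replicate 2 or 3 (adjusted p 0.0629 to 0.225). Both calls were lost under library totals (adjusted p 0.159 and 0.612). A row without a symbol at chr5:51810967-51831490 covers 99.8% of the gene that the RefSeq annotation names LDHB, and was counted at 2490 to 2580 CPM on average in the 4 sham groups. That row, taken by position alone and not counted among the members, had 2720, 2490 and 2370 CPM in Young Early sham and 1360, 1770 and 1300 CPM in the infarct zone. It fell by 0.77 ± 0.26 (Young Early), 1.08 ± 0.26 (Old Early) and 0.77 ± 0.26 (Old Late) on the log2 scale, with edgeR adjusted p of 0.026, 0.00183 and 0.0137, and gave -0.12 ± 0.26 in Young Late hearts.

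PDK1 phosphorylates and blocks pyruvate dehydrogenase, holding pyruvate back from mitochondrial oxidation. It was the single member that rose in one infarct zone and fell in another. Young Early hearts had 32.4, 41.1 and 27.4 CPM in sham and 62.6, 68.2 and 43.8 CPM in the infarct zone (log2 fold change 0.79 ± 0.23, edgeR adjusted p 0.0131). Old Late hearts had 62.4, 73.0 and 62.3 CPM in sham and 27.2, 42.4 and 29.2 CPM in the infarct zone (-1.0 ± 0.23, adjusted p 0.000751). Neither comparison had overlapping groups, and the Young Early call was lost without IZ replicate 2 (0.66, adjusted p 0.0542) or Sham replicate 3 (0.66, adjusted p 0.0761). The Old Late call was lost under library totals (-0.42, adjusted p 0.161).

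The PFKFB enzymes make and remove fructose 2,6-bisphosphate, the strongest activator of phosphofructokinase, and their isozymes parted in the infarct zone. PFKFB3, the inducible form with high kinase activity, rose at all 4 ages and times, while PFKFB2, the heart form, and PFKFB4 each fell at 3. PFKFB3 had 2.91, 3.41 and 4.33 CPM in Young Early sham and 51.3, 49.7 and 14.9 CPM in the infarct zone, and 2.75, 2.51 and 2.25 against 18.3, 21.9 and 31.7 CPM in Old Late hearts. Groups did not overlap at any age or time. Its log2 fold changes were 3.44 ± 0.45, 2.47 ± 0.42, 1.20 ± 0.45 and 3.25 ± 0.45 in Young Early and Old Early, then Young Late and Old Late hearts (edgeR adjusted p 8.15e-06, 6.98e-05, 0.0414 and 9.25e-07). The Young Late call was lost without IZ replicate 1 or any of the 3 Sham libraries (adjusted p 0.0594 to 0.25), and moved from 1.20 to 0.84 without IZ replicate 1. It was also lost with the animal as a block in the limma-voom fit (adjusted p 0.18), with the preparation batch as a term (0.0516), with the integrity number as a covariate (0.0554) and without mitochondrial genes (0.0576), and was kept in the other 4 of 8 alternatives.

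PFKFB2 stood at 19.8, 22.7 and 17.0 CPM in Young Late sham and 4.08, 5.28 and 4.56 CPM in the infarct zone. In Old Late hearts it stood at 28.0, 41.4 and 36.8 CPM in sham and 4.08, 8.87 and 7.56 CPM in the infarct zone. These groups lay far apart, with log2 fold changes of -2.09 ± 0.43 and -2.37 ± 0.42 and edgeR adjusted p of 0.000587 and 3.02e-05. In Old Early hearts PFKFB2 fell by 1.63 ± 0.41 (adjusted p 0.00314), and in Young Early hearts, where sham had 5.02 to 8.46 CPM, it gave -0.30 ± 0.42 and overlapped. PFKFB4 fell by 1.06 ± 0.25, 0.67 ± 0.25 and 1.19 ± 0.25 on the log2 scale in Young Early, Old Early and Young Late hearts (edgeR adjusted p 0.00242, 0.034 and 0.000698), from 34.5, 31.6 and 28.7 to 21.6, 11.9 and 11.9 CPM in the first of these. The Old Early call of PFKFB4 was lost without IZ replicate 3 or any of the 3 Sham libraries (adjusted p 0.0543 to 0.174). That call was also lost with the integrity number as a covariate and under library totals. Library totals ended the Young Early call of PFKFB4 (0.267) and the Old Early call of PFKFB2 (0.0535) as well. PFKFB1, the liver form, had a count in 7 of the 36 libraries and never more than 2 reads.

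Glycogen phosphorylase frees glucose 1-phosphate from glycogen, and the heart expresses its muscle (PYGM) and brain (PYGB) forms. Both fell in the infarct zone, PYGB at all 4 ages and times, while the liver form PYGL rose. PYGB (chr17:30941752-30997872) had 1470, 1620 and 1280 CPM in Young Early sham and 550, 560 and 482 CPM in the infarct zone. Old Late hearts had 1310, 1570 and 2120 CPM in sham and 166, 284 and 187 CPM in the infarct zone. No infarct zone library overlapped sham at any age or time. PYGB fell by 1.46 ± 0.26, 1.19 ± 0.26, 1.32 ± 0.26 and 2.97 ± 0.28 on the log2 scale in Young Early and Old Early, then Young Late and Old Late hearts (edgeR adjusted p 0.000267, 0.000877, 0.000404 and 3.64e-09).

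PYGM had 359, 432 and 343 CPM in Young Early sham and 147, 121 and 108 CPM in the infarct zone, and 279, 175 and 219 against 85.2, 85.0 and 49.0 CPM in Old Late hearts. It fell by 1.59 ± 0.28 and 1.62 ± 0.28 on the log2 scale there and by 1.30 ± 0.28 in Old Early hearts (edgeR adjusted p 0.000197, 2.19e-05 and 0.000632), without overlap, and gave -0.66 ± 0.27 in Young Late hearts, which missed the threshold (0.0673). PYGL had 74.0, 68.4 and 66.0 CPM in Young Early sham and 90.3, 95.9 and 99.2 CPM in the infarct zone, and 66.9, 39.1 and 48.3 against 102, 85.1 and 75.7 CPM in Young Late hearts. The infarct zone lay above sham without overlap in all 4 comparisons, by 0.45 ± 0.17, 0.55 ± 0.17, 0.76 ± 0.17 and 0.52 ± 0.17 on the log2 scale (edgeR adjusted p 0.0446, 0.0126, 0.0012 and 0.0119). The Young Early call of PYGL was lost in 6 of 6 fits that left out 1 library (adjusted p 0.0668 to 0.129) and in 4 of 8 other alternatives, which were the limma-voom fit with the animal as a block (0.0511), the integrity number as a covariate (0.0902), DESeq2 size factors (0.0613) and no count filter (0.0649). Under library totals the 4 values of PYGL were 1.06, 0.94, 0.97 and 1.10. The Old Early call was lost without Sham replicate 2 (0.062), and the Old Late call without Sham replicate 3 (0.0623). The PYGM row overlaps RASGRP2 on the same strand.

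Of the glycogen-building enzymes UGP2 rose at 1 age and time, and GBE1 and GYS1 fell at 1. UGP2, which makes the UDP-glucose that glycogen is built from, rose in Young Early hearts, from 12.8, 15.8 and 12.7 CPM in sham to 36.1, 27.7 and 39.0 CPM in the infarct zone (log2 fold change 1.32 ± 0.28, edgeR adjusted p 0.00108). It differed by -0.32 to -0.07 in the other 3 infarct zones and did not pass. GBE1, the branching enzyme, fell in Old Late hearts from 64.7, 60.0 and 45.4 CPM to 12.7, 34.8 and 25.2 CPM (-1.23 ± 0.42, adjusted p 0.0172). GYS1, muscle glycogen synthase, fell there from 156, 156 and 161 CPM to 128, 129 and 104 CPM (-0.39 ± 0.16, adjusted p 0.0438). The groups of these 3 results did not overlap. The GYS1 call was lost in 6 of 6 fits that left out 1 library (adjusted p 0.0769 to 0.304) and in 6 of 8 other alternatives, its value being 0.18 under library totals. The GBE1 call was lost without IZ replicate 1 or 3 or Sham replicate 1 (0.0533 to 0.158), with the integrity number (0.108) and under library totals (0.304).

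Per kilobase of exon, the shares of the isozymes within a step differed between sham and infarct zone. ENO1 supplied 18.9% ± 2.5 (SD, n = 3) of the summed enolase CPM per kilobase in Young Early sham and 68.1% ± 1.6 in the infarct zone. The corresponding shares of ENO1 were 12.4% ± 1.8 and 73.8% ± 13 in Old Early, 19.8% ± 4.2 and 40.7% ± 5.7 in Young Late, and 11.2% ± 0.73 and 60.1% ± 7.2 in Old Late hearts. Shares of the infarct zone and sham did not overlap at any age or time. The summed enolase level moved less: 470 ± 49.8 and 492 ± 135 CPM per kilobase in Young Early, 358 ± 15.6 and 564 ± 169 in Old Early, 409 ± 70.9 and 409 ± 35.1 in Young Late, and 388 ± 24.4 and 288 ± 42.8 in Old Late sham and infarct zone. These shares describe the members tested above and carry no test of their own.

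PGAM1 made up 58.5% ± 7.4 of the mutase signal per kilobase in Young Early sham and 81.8% ± 6.7 in the infarct zone, and 61.4% ± 5.8 and 82.6% ± 7.9 in Old Late hearts. PFKM gave 62.4% ± 1.4 of phosphofructokinase in Old Early sham and 31.0% ± 11 in the infarct zone, and 65.7% ± 4.5 and 38.0% ± 11 in Old Late hearts. PFKFB3 went from 4.39% ± 1.4 to 44.4% ± 17 of the PFKFB signal in Young Early hearts and from 1.90% ± 0.50 to 33.8% ± 5.7 in Old Late hearts. LDHA, set against the unnamed row at the LDHB position, went from 1.41% ± 0.42 to 13.1% ± 1.9 in Young Early and from 0.875% ± 0.057 to 7.00% ± 2.9 in Old Late hearts, so the B form remained the larger part in every group. PYGL, at 2.16% to 2.65% of glycogen phosphorylase on average in the 4 sham groups, reached 8.63% ± 1.1 in the Young Early and 18.8% ± 4.2 in the Old Late infarct zone. Here the summed level also differed, being 303 ± 34.9 and 116 ± 8.83 CPM per kilobase in Young Early and 313 ± 64.2 and 56.0 ± 11.4 in Old Late sham and infarct zone.

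**Figure D3:**
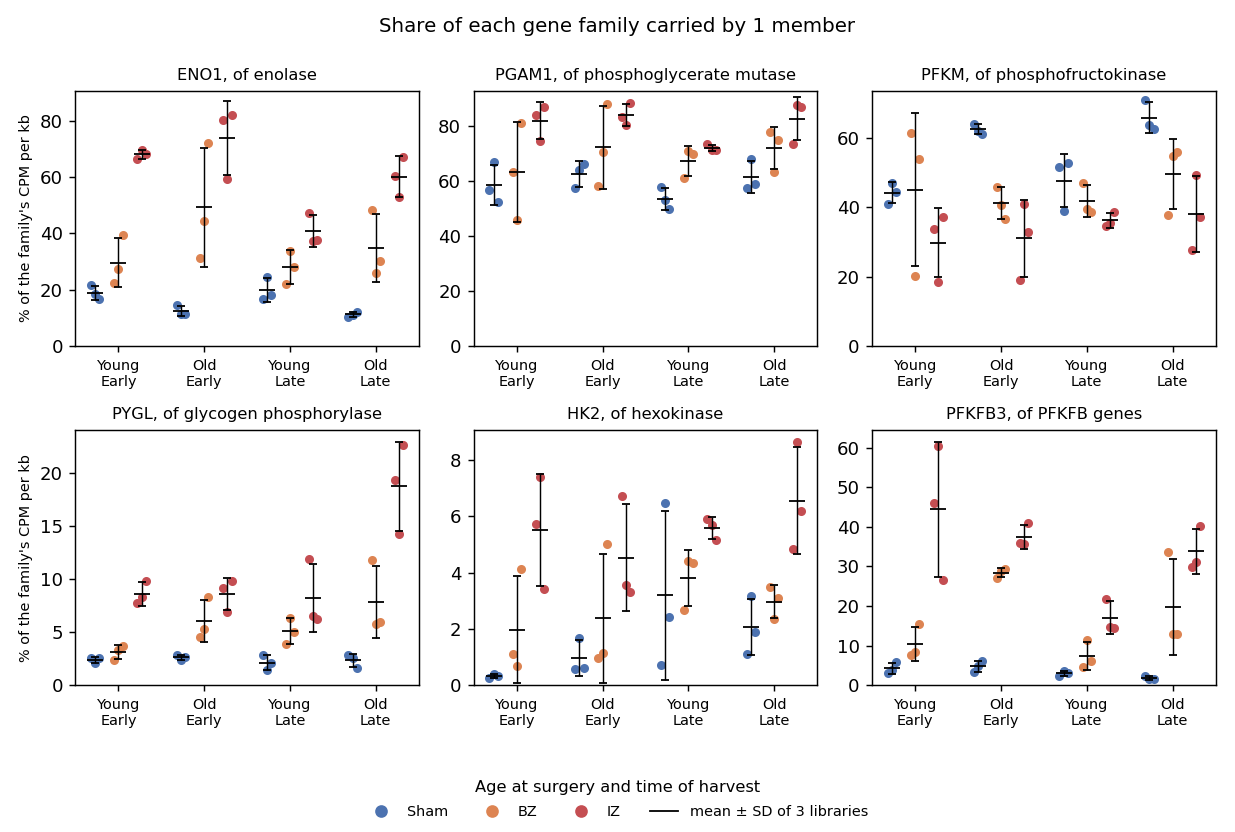
Share of 1 member in the summed CPM per kilobase of its family, in percent, for ENO1, PGAM1, PFKM, PYGL, HK2 and PFKFB3, with 1 point per library and the mean ± SD of 3 libraries for sham, border zone (BZ) and infarct zone (IZ). The ENO1 share is 18.9% in Young Early sham and 68.1% in the infarct zone, and 11.2% and 60.1% in Old Late hearts.

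In the border zone SLC2A4, PFKFB2 and PYGB fell at 3 of the 4 ages and times and ENO1, PFKFB3 and LDHA rose at 2, and none passed in Young Early hearts. Young Early hearts had 0 of 31 members higher and 0 lower by edgeR, beside 0.784% and 0.33% of all genes. There 11 of 31 members had an unadjusted p under 0.05, beside 2623 of 14537 genes. DESeq2 called 2 members there (2.3% of all genes higher and 1.53% lower) and limma-voom 0 (0.0825% and 0.0825%). When Young Early BZ replicate 2 was left out, edgeR called HK2 and LDHA higher, beside 0.828% of all genes higher and 0.278% lower. Old Early border zones had 2 members higher (6.45%, against 14.1% of all genes) and 5 lower (16.1%, against 8.46%). Young Late border zones had 4 higher (12.9%, against 8.25%) and 3 lower (9.68%, against 6%), and Old Late border zones 4 higher (12.9%, against 20%) and 8 lower (25.8%, against 19.7%). Median log2 fold changes of the members were 0.04, -0.08, 0.02 and -0.28 in Young Early and Old Early, then Young Late and Old Late border zones, beside 0.13, 0.02, 0.02 and -0.03 over all genes. Without Young Early BZ replicate 2 the Young Early medians were -0.11 for the members and 0.02 for all genes. With library totals 7 members rose and 2 fell in Old Early, 4 and 1 in Young Late, and 7 and 4 in Old Late border zones, beside 26.3% and 1.35%, 10.1% and 1.84%, and 27.5% and 6.4% of all genes. Summed cardiomyocyte markers in the border zone were 43200 to 77800, 24100 to 43200, 56700 to 64800 and 29100 to 45300 CPM in that order, and neutrophil markers 5.87 to 14.4, 29.3 to 61.7, 3.12 to 57.0 and 30.6 to 296 CPM, and their part was not tested. Without Young Early BZ replicate 2 the first ranges were 43200 to 66400 and 5.87 to 6.93 CPM. Border and infarct zones share their sham libraries, so their values are set side by side and no overlap between them is counted.

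SLC2A4 fell in 3 border zones. It had 118, 140 and 53.9 CPM in Old Early sham and 55.2, 25.4 and 36.4 CPM in the border zone, which overlapped in 1 library of each, and 211, 176 and 255 against 54.1, 91.0 and 84.1 CPM in Old Late hearts, which did not. Its log2 fold changes were -1.41 ± 0.31, -1.11 ± 0.30 and -1.49 ± 0.31 in Old Early, Young Late and Old Late hearts (edgeR adjusted p 0.00165, 0.0156 and 0.000425). The Young Late call was lost without BZ replicate 2 or 3 or Sham replicate 2 (adjusted p 0.0568 to 0.0998). PFKFB2 fell in the same 3 border zones by 1.57 ± 0.41, 1.47 ± 0.42 and 2.07 ± 0.41, with 16.2, 19.5 and 14.4 CPM in Old Early sham against 4.09, 4.89 and 7.81 CPM in the border zone. PYGB also fell in those 3, by 0.71 ± 0.26, 0.82 ± 0.26 and 1.5 ± 0.26. Of these calls, PYGB was lost in 5 of 6 fits with 1 library left out in Old Early hearts (adjusted p up to 0.22) and in 3 of 6 in Young Late hearts (up to 0.189), and PFKFB2 in 3 of 6 in Young Late hearts (up to 0.0828). Under library totals PFKFB2 and PYGB were lost in Old Early and Young Late border zones (adjusted p 0.0704 to 0.354). PYGB was also lost in both without the count filter. It was lost with the batch term in Old Early and with the integrity number in Young Late hearts.

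Among members that rose, ENO1 had 423, 426 and 645 CPM in the Old Early border zone and 412, 255 and 231 CPM in the Old Late border zone, above all sham libraries of the same age and time. Its log2 fold changes were 2.18 ± 0.36 and 1.49 ± 0.35 (edgeR adjusted p 0.000125 and 0.00154). PFKFB3 rose in the same 2 border zones, by 1.53 ± 0.42 and 2.39 ± 0.44 (adjusted p 0.00894 and 0.000119), with 9.77, 10.9 and 19.3 CPM in the Old Early and 21.2, 7.97 and 10.2 CPM in the Old Late border zone. The Old Early call of PFKFB3 was lost without Sham replicate 1 (0.0525) or BZ replicate 3 (0.0699). LDHA rose in the Young Late border zone (80.7, 175 and 211 CPM, log2 fold change 1.94 ± 0.47, adjusted p 0.00669) and in the Old Late one (134, 91.3 and 106 CPM, 1.43 ± 0.46, adjusted p 0.0149). The Old Late call of LDHA was lost without BZ replicate 1 (0.0652) or Sham replicate 1 (0.0562). SLC16A3 rose in the Young Late border zone (16.5, 42.3 and 47.1 CPM, 1.71 ± 0.40, adjusted p 0.00547).

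PGAM1 and PYGL rose in Young Late hearts (0.76 ± 0.26 and 0.58 ± 0.17), and ALDOC in Old Late hearts (1.08 ± 0.39). PFKFB4 fell in Old Early hearts (-1.35 ± 0.25), where sham had 24.3, 24.2 and 22.3 CPM and the border zone 7.76, 6.95 and 13.0 CPM, without overlap (edgeR adjusted p 0.00039). PYGM fell in Old Early (-0.83 ± 0.27) and Old Late hearts (-0.69 ± 0.27). HK1, PFKM, GBE1 and PDK1 fell in Old Late hearts by 0.58 ± 0.18, 0.89 ± 0.36, 1.45 ± 0.42 and 0.90 ± 0.23. PDK1 had 62.4, 73.0 and 62.3 CPM in Old Late sham and 27.4, 34.3 and 44.2 CPM in the border zone, and its call was kept in every fit that left out 1 library. The calls of PGAM1, PYGL, ALDOC, PYGM (both) and PFKM were each lost in 4 or 5 of 6 such fits, HK1 in 2 and GBE1 in 1 (without BZ replicate 1, adjusted p 0.0512). The PFKM call was kept in 1 of 8 other alternatives and lost with the animal as a block (0.0527), the batch term (0.0508), the integrity number (0.225), all 3 other scalings (0.0539 to 0.247) and no count filter (0.0637). GBE1 was lost with the integrity number (0.0817) and under library totals (0.0679), HK1 (0.25) and both PYGM calls (0.152 and 0.208) under library totals, and ALDOC with the integrity number (0.172). The Old Late PYGM call was also lost with DESeq2 size factors, without mitochondrial genes and without the count filter. PGAM1 was lost without mitochondrial genes and without the count filter (up to 0.0598).

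Since both zones came from the same hearts, infarct zone was compared with border zone within animals, in a model with the animal as a block over 24 libraries and 14386 genes. In Young Early hearts 4 of 31 members were higher in the infarct zone (12.9%, against 4.03% of all genes) and 6 lower (19.4%, against 6.68%). With library totals these counts were 11 and 6, beside 30.2% and 2.72% of all genes. In Old Late hearts 0 were higher (0.438% of all genes) and 4 lower (12.9%, against 1.61%). Old Early hearts had 0 higher and 0 lower by edgeR, as had all genes (0% and 0%), and 0 by DESeq2 (5 of 14386 genes). An unadjusted p under 0.05 was reached by 7 of 31 members there, beside 928 of 14386 genes. Young Late hearts likewise had 0 and 0 beside 0% and 0% of all genes, and 0 by DESeq2 (79 of 14386 genes). The unadjusted p was under 0.05 for 3 of 31 members there, beside 1434 of 14386 genes, a share near that of all genes.

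PFKFB3 was higher in the infarct zone of all 3 Young Early pigs, at 51.3, 49.7 and 14.9 CPM over a border zone range of 3.61 to 10.7 CPM (log2 difference 2.42 ± 0.54, edgeR adjusted p 0.0179). LDHA (1.94 ± 0.53, adjusted p 0.0361), SLC16A3 (1.36 ± 0.36, adjusted p 0.0326) and UGP2 (0.81 ± 0.22, adjusted p 0.0363) were also higher in 3 of 3 pigs. PYGM (-1.20 ± 0.17), PYGB (-1.37 ± 0.23), SLC2A4 (-1.20 ± 0.25), TPI1 (-1.19 ± 0.27), PGAM2 (-1.76 ± 0.31) and ENO3 (-1.52 ± 0.28) were lower in 3 of 3. Young Early BZ replicate 2, the library that stood apart, had 3650 CPM of TPI1, 2140 CPM of PGAM2 and 6990 CPM of ENO3, against 671 and 844, 419 and 309, and 2380 and 1890 CPM in the other border zone libraries. Without that pig's pair of libraries the 4 higher calls were lost (adjusted p 0.125 to 0.18), as was TPI1 (0.064), and 5 of 10 were left. Without the pair of replicate 1 the 4 higher calls (0.0727 to 0.139) and SLC2A4 (0.0556) were lost, and without that of replicate 3 SLC2A4 (0.0554). In Old Late hearts SLC2A4 (-1.91 ± 0.26), PYGB (-1.5 ± 0.24), PYGM (-0.96 ± 0.17) and HK1 (-0.68 ± 0.15) were lower in the infarct zone of 3 of 3 pigs, with edgeR adjusted p of 0.0167, 0.0282, 0.0318 and 0.0454. Each of these 4 calls was lost when any 1 pair was left out (adjusted p 0.106 to 0.284), and when the animal was taken from the conflicting individual label (0.113 to 0.287). HK1, PYGB and PYGM were also lost when the animal block was dropped. The HK1 call was lost with DESeq2 size factors, without the count filter and under library totals as well.

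Whether the response differed with age at surgery was tested as the difference between the Old and the Young log2 fold changes against sham. For the Early infarct zone 1 of 31 members gave a more positive response in Old hearts (3.23%, against 0.537% of all genes) and 0 a more negative one (0.378% of all genes). For the Late infarct zone 0 were more positive (1.31% of all genes) and 3 more negative (9.68%, against 2.35%). For the Early border zone the counts were 0 and 0 by edgeR, beside 0.138% and 0.0825% of all genes. The unadjusted p was under 0.05 for 7 of 31 members there, beside 2631 of 14537 genes. DESeq2 gave 1 call (591 of 14537 genes) and limma-voom 0 (19 genes). Without Young Early BZ replicate 2 edgeR gave 6 calls, beside 8.32% of all genes more positive and 6.98% more negative. For the Late border zone the counts were 0 and 0 beside 0.743% and 0.344% of all genes. The unadjusted p was under 0.05 for 5 of 31 members there, beside 2553 of 14537 genes, a share near that of all genes. DESeq2 gave 1 call (596 of 14537 genes) and limma-voom 0 (4 genes). With library totals 0 members passed in any of the 4 tests, beside 0, 210, 3 and 19 of 14537 genes in the order above.

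PYGB and SLC2A4 fell at both ages 1 week after surgery and fell further in Old hearts, and HK1 fell in Old hearts alone among those 2. The PYGB response was -1.32 ± 0.26 in Young Late and -2.97 ± 0.28 in Old Late hearts, a difference of -1.65 ± 0.37 (edgeR adjusted p 0.0169). For SLC2A4 the responses were -1.60 ± 0.31 and -3.37 ± 0.33, a difference of -1.77 ± 0.43 (adjusted p 0.0235). For HK1 they were -0.13 ± 0.18 and -1.23 ± 0.19, a difference of -1.10 ± 0.26 (adjusted p 0.0205). Cardiomyocyte markers were 40800 to 57200 CPM in the Young Late and 16600 to 25500 CPM in the Old Late infarct zone, and their part in these differences was not tested. Old Late libraries were all prepared in batch 3 and Young Late libraries in batches 1 and 2, so batch and age cannot be told apart in the Late groups. All 3 calls were lost without Young Late IZ replicate 2 or 3 or Old Late IZ replicate 1 or 3, and that of HK1 also without Young Late Sham replicate 2 or Old Late Sham replicate 2 (adjusted p 0.0542 to 0.111 in all). They were lost under library totals as well, with differences of -1.21 (PYGB, adjusted p 0.0884), -1.33 (SLC2A4, 0.0805) and -0.70 (HK1, 0.178). PFKFB3 (2.05 ± 0.62, adjusted p 0.056), PDK1 (-1.12 ± 0.33, 0.0509) and ALDOA (-1.12 ± 0.34, 0.0575) came near the threshold.

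**Figure D4:**
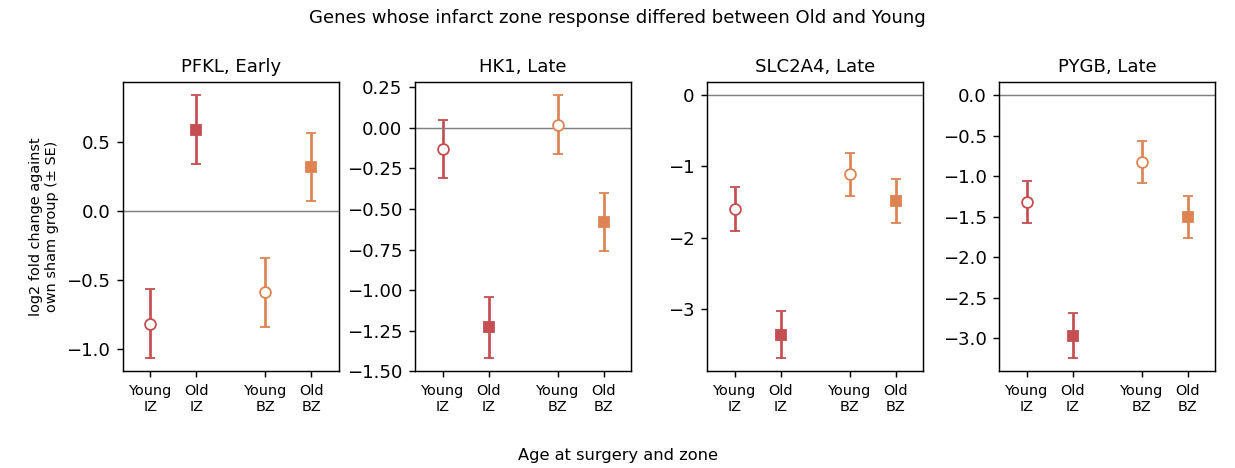
Log2 fold change against the group's own sham hearts (± SE) in the infarct zone (IZ) and border zone (BZ) of Young (open circles) and Old hearts (filled squares), for the 4 members whose infarct zone response passed the test of the difference between ages. In the Late panels PYGB (-1.32 in Young, -2.97 in Old), SLC2A4 (-1.60 and -3.37) and HK1 (-0.13 and -1.23) are lower in the Old infarct zone, and in the Early panel PFKL is -0.82 in Young and 0.59 in Old.

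In the Early infarct zone PFKL was the member that passed. It fell in Young hearts (-0.82 ± 0.25) and gave 0.59 ± 0.25 in Old hearts, where sham had 124, 106 and 141 CPM and the infarct zone 238, 153 and 165 CPM. The difference was 1.41 ± 0.35 (edgeR adjusted p 0.0493), and it was lost in 10 of 12 fits that left out 1 library, all but Young Early IZ replicate 2 and Old Early IZ replicate 2 (adjusted p 0.0771 to 0.191). It was also lost in 5 of 8 other alternatives: with the integrity number as a covariate (0.419), the preparation batch as a term (0.0543), the animal as a block (0.0716), no count filter (0.0654) and library totals (0.102). PDK1 (-1.27 ± 0.33, adjusted p 0.0502) and UGP2 (-1.39 ± 0.39, 0.0612) came near the threshold. Young Early libraries were all prepared in batch 1 and Old Early libraries all in batch 2, so batch and age cannot be told apart in these groups.

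Sham hearts of different ages also differed in these genes. UGP2 and GBE1 were higher and ENO2 and PKM lower in the older sham hearts at both the Early and the Late time, which use separate pigs. PFKL, ALDOC and SLC16A3 were lower and PFKFB2 higher both at 15 and at 9 days than at 3 days, in comparisons that share the 3 Young Early sham libraries. At the Early time, 15-day-old compared with 3-day-old sham hearts had 4 of 31 members higher (12.9%, against 17.5% of all genes) and 11 lower (35.5%, against 13.6%). At the Late time, 21-day-old compared with 9-day-old sham hearts had 2 higher (6.45%, against 6.98%) and 3 lower (9.68%, against 3.91%). Between 9 and 3 days of age, in Young sham hearts, 2 were higher (6.45%, against 4.38%) and 3 lower (9.68%, against 4.36%). Between 21 and 15 days, in Old sham hearts, 0 were higher and 0 lower by edgeR (0.0206% and 0.00688% of all genes). DESeq2 and limma-voom also gave 0, beside 102 and 5 of 14537 genes. The unadjusted p was under 0.05 for 8 of 31 members, beside 1399 of 14537 genes. RNA integrity numbers were 6.4 to 6.9 in Young Early and 7.1 to 7.6 in Old Early sham hearts, and the preparation batches differed too. At the Late time the sham libraries were prepared in batches 1 and 2 (Young) and in batch 3 (Old), so batch and age cannot be told apart there either. With the integrity number as a covariate the Early count went from 15 to 3, beside 5.95% of all genes higher and 3.7% lower. With the batch as a term it went to 5, beside 5.32% and 4.31%. The Late count went from 5 to 0 with the integrity number, beside 0.578% and 0.337% of all genes. With library totals 4 members were higher and 4 lower at the Early time (21.6% and 5.17% of all genes), 5 and 1 at the Late time (14.6% and 1.09%), and 1 and 2 between 3 and 9 days (2.55% and 1.8%).

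PFKL had 444, 421 and 250 CPM at 3 days and 124, 106 and 141 CPM at 15 days, without overlap (log2 difference -1.59 ± 0.25, edgeR adjusted p 0.000661). Of the glycogen-building enzymes UGP2 and GBE1 were higher in the older hearts and GYS1 lower. UGP2 had 12.8, 15.8 and 12.7 CPM at 3 days and 35.6, 39.7 and 38.8 CPM at 15 days (1.47 ± 0.28, adjusted p 0.00146). GBE1 had 12.7, 21.3 and 14.2 against 43.6, 46.3 and 53.2 CPM (1.57 ± 0.43, adjusted p 0.00973), and PDK1 32.4, 41.1 and 27.4 against 82.2, 62.8 and 75.9 CPM (1.13 ± 0.23, adjusted p 0.00231), each without overlap. PFKFB2, the fourth that was higher, gave 1.22 ± 0.41 (adjusted p 0.027). ENO1 was lower in the older hearts (267, 230 and 170 against 133, 101 and 96.2 CPM, -1.01 ± 0.35, adjusted p 0.029), as was SLC16A3 (-1.34 ± 0.39), ENO2 (-1.38 ± 0.41), ALDOC (-1.16 ± 0.38), TPI1 (-1.09 ± 0.37), PYGM (-0.70 ± 0.27), ALDOA (-0.69 ± 0.24), PKM (-0.67 ± 0.20), PFKP (-0.50 ± 0.19) and GYS1 (-0.44 ± 0.16). Leaving out 1 library ended the calls of PFKP and PYGM in 6 of 6 fits, of ENO1, PFKFB2, ALDOA, ALDOC, TPI1 and GYS1 in 4, of PKM and SLC16A3 in 2 (Young Early Sham replicate 2 and Old Early Sham replicate 3), and of GBE1 (Young Early Sham replicate 1) and ENO2 (Old Early Sham replicate 3) in 1. The calls of PFKL, UGP2 and PDK1 were kept in all 6.

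At the Late time UGP2 (1.08 ± 0.28, edgeR adjusted p 0.0146) and GBE1 (1.34 ± 0.43, adjusted p 0.0419) were again higher in the older sham hearts, and ENO2 (-1.70 ± 0.45), PFKFB4 (-0.80 ± 0.25) and PKM (-0.63 ± 0.20) lower. UGP2 had 16.1, 18.5 and 24.9 CPM at 9 days and 43.1, 44.5 and 37.9 CPM at 21 days, without overlap. Between 3 and 9 days HK2 was higher (1.83, 2.68 and 1.99 against 4.75, 35.6 and 13.4 CPM, 3.00 ± 0.70, adjusted p 0.0125), as was PFKFB2 (1.47 ± 0.42, adjusted p 0.0297). SLC16A3 (-1.95 ± 0.40), PFKL (-1.39 ± 0.25) and ALDOC (-1.30 ± 0.39) were lower at 9 days (edgeR adjusted p 0.00557, 0.00278 and 0.0356). HK2 moved from 3.00 to 2.04 and lost its call without Young Late Sham replicate 2 (adjusted p 0.119), and lost it also without Young Early Sham replicate 1 (0.0552) or 3 (0.054) and with the animal as a block in limma-voom (2.35, 0.163). In the fits that left out 1 library the calls of PFKFB2 and ALDOC were lost in 5 of 6. At the Late time 3 to 5 of 6 such fits lost the calls of UGP2, GBE1, ENO2, PFKFB4 and PKM.

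Rows without a symbol at the positions of the other unmatched members gave values for these loci, by position alone. The row at the SLC2A3 (GLUT3) position, chr5:62963640-63041739, had 126, 158 and 159 CPM in Young Early sham and 481, 663 and 252 CPM in the infarct zone, without overlap, and rose (log2 fold change 1.66 ± 0.25, edgeR adjusted p 5e-05). It also rose in Old Early hearts (0.87 ± 0.25, adjusted p 0.00835) and fell in Old Late hearts, from 223, 245 and 176 to 118, 164 and 107 CPM (-0.73 ± 0.25, adjusted p 0.017). This SLC2A3 row overlaps another unnamed row on the same strand, so reads may be split between them. The row at the PGM1 position, chr6:148851184-148913792, whose enzyme links glycogen to glycolysis, fell in Young Late (-0.70 ± 0.25, adjusted p 0.0369) and Old Late infarct zones (-1.85 ± 0.26, adjusted p 1.36e-06), with 325, 228 and 246 CPM in Old Late sham and 86.7, 67.8 and 67.4 CPM in the infarct zone. The rows at the SLC2A1 (GLUT1) and SLC16A1 (MCT1) positions span further annotated genes, among them ERMAP and P3H1 for the first and LRIG2 for the second, so their values cannot be assigned to the carrier. The SLC2A1 row rose in Old Early (0.97 ± 0.27) and Old Late infarct zones (1.07 ± 0.27), and the SLC16A1 row fell in Young Early (-0.60 ± 0.23), Old Early (-0.78 ± 0.23) and Old Late ones (-1.37 ± 0.23).

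Neighbouring steps of glucose metabolism outside the 36 genes were read from lists of 92 further genes, 84 of which had a row and 79 of which were tested. In Young Early and Old Early, then Young Late and Old Late infarct zones 11, 18, 11 and 21 of the 79 rose (13.9%, 22.8%, 13.9% and 26.6%, against 15.2%, 19.5%, 17.2% and 25.1% of all genes) and 19, 28, 14 and 33 fell (24.1%, 35.4%, 17.7% and 41.8%, against 12%, 14.8%, 13% and 24%). The shares that rose thus lay near those of all genes, and the shares that fell above them. In the border zones 0, 14, 3 and 17 rose (0%, 17.7%, 3.8% and 21.5%, against 0.784%, 14.1%, 8.25% and 20%) and 0, 19, 3 and 33 fell (0%, 24.1%, 3.8% and 41.8%, against 0.33%, 8.46%, 6% and 19.7%). The counts of the smaller lists are to be read against the same shares of all genes. Of 17 genes of pyruvate and lactate metabolism 6, 10, 4 and 10 fell and 1, 2, 0 and 3 rose in the infarct zone. Of 10 genes of the glycerol phosphate and malate shuttles, which carry glycolytic NADH into mitochondria, 6, 7, 2 and 8 fell and 0 rose in each. Of 12 genes of glucose entry 3, 6, 6 and 7 rose and 1, 2, 0 and 1 fell, and of 7 pentose phosphate genes 0, 5, 2 and 5 rose and 0, 1, 1 and 1 fell. Of 18 further glycogen genes 2 rose in each infarct zone (11.1%, below the share of all genes at each age and time) and 3, 5, 2 and 6 fell.

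SLC2A5, the fructose carrier, had 0.319, 0.156 and 0.688 CPM in Old Early sham and 17.5, 19.9 and 20.3 CPM in the infarct zone, and 0.202, 0.147 and 0.188 against 44.0, 34.9 and 38.5 CPM in Old Late hearts. It rose in all 4 infarct zones without overlap, with sham counts of 0 to 18 reads behind its fold changes. TKT, the transketolase of the pentose phosphate pathway, had 20.0, 13.5 and 22.1 CPM in Old Late sham and 121, 89.9 and 125 CPM in the infarct zone (log2 fold change 2.6 ± 0.36, edgeR adjusted p 1.33e-06), and rose by 2.32 ± 0.36 in Old Early hearts. Both genes are also expressed by leukocytes, whose markers rose in the same libraries, and their part was not tested.

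PDHA1, a subunit of pyruvate dehydrogenase, had 1210, 1030 and 1130 CPM in Old Late sham and 225, 288 and 234 CPM in the infarct zone (log2 fold change -2.17 ± 0.25, edgeR adjusted p 7e-08). PDK2, the main pyruvate dehydrogenase kinase of resting heart beside PDK4, fell in all 4 infarct zones, with log2 fold changes of -1.28 ± 0.28, -0.88 ± 0.28, -1.06 ± 0.28 and -1.78 ± 0.28. GOT1, the cytosolic aspartate aminotransferase of the malate shuttle, fell in all 4 as well, from 509, 508 and 465 CPM to 96.6, 109 and 75.3 CPM in Old Late hearts (-2.40 ± 0.31, adjusted p 3.86e-07). PPP1R3C, which targets protein phosphatase 1 to glycogen, fell by 2.02 ± 0.35 in Old Late hearts, and PGM2 rose there by 1.25 ± 0.37.

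The level of the list was averaged over the members with a count in a library. It was 7.08 ± 0.35 log2 CPM (SD, n = 3) in Young Early sham, 7.15 ± 0.24 in the border zone and 7.24 ± 0.22 in the infarct zone, and these overlapped. Without Young Early BZ replicate 2 the border zone value was 7.26. Old Early hearts gave 6.94 ± 0.09, 6.63 ± 0.21 and 6.81 ± 0.24 in sham, border and infarct zone, and Young Late hearts 6.96 ± 0.11, 7.10 ± 0.11 and 7.05 ± 0.10. Old Late hearts gave 6.90 ± 0.03 in sham, 6.71 ± 0.08 in the border zone and 6.34 ± 0.16 in the infarct zone, where the 3 groups did not overlap (6.86 to 6.92, 6.62 to 6.77 and 6.19 to 6.51). Scaled by library total in place of TMM, the Old Late sham and infarct zone means were 6.94 ± 0.03 and 6.95 ± 0.25, so this difference was not seen under library totals. Library totals also gave 6.62 ± 0.45 (6.11 to 6.97) in Young Early sham against 7.34 ± 0.29 (7.05 to 7.63) in the infarct zone, and 6.67 ± 0.15 (6.51 to 6.79) against 6.93 ± 0.05 (6.88 to 6.96) in Young Late hearts, without overlap in either. All genes moved up under that scaling as well. Their median log2 fold change against sham was 0.69 in Young Early, 0.22 in Young Late and 0.53 in Old Late infarct zones. The medians of the tested members were 0.35, 0.11 and 0.10, below those of all genes in each. PFKFB1 enters the mean in the 7 libraries where it has a read and lowers it there. Without it, under TMM, the Young Early values were 7.18 ± 0.19, 7.26 ± 0.15 and 7.24 ± 0.22 in sham, border and infarct zone. The Old Early values were then 6.94, 6.84 and 7.02 and the Old Late infarct zone 6.44 ± 0.10. Under library totals the mean was not taken without PFKFB1, which lowers Young Early sham replicate 3 (6.11) and so widens the Young Early difference there.

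**Figure D5:**
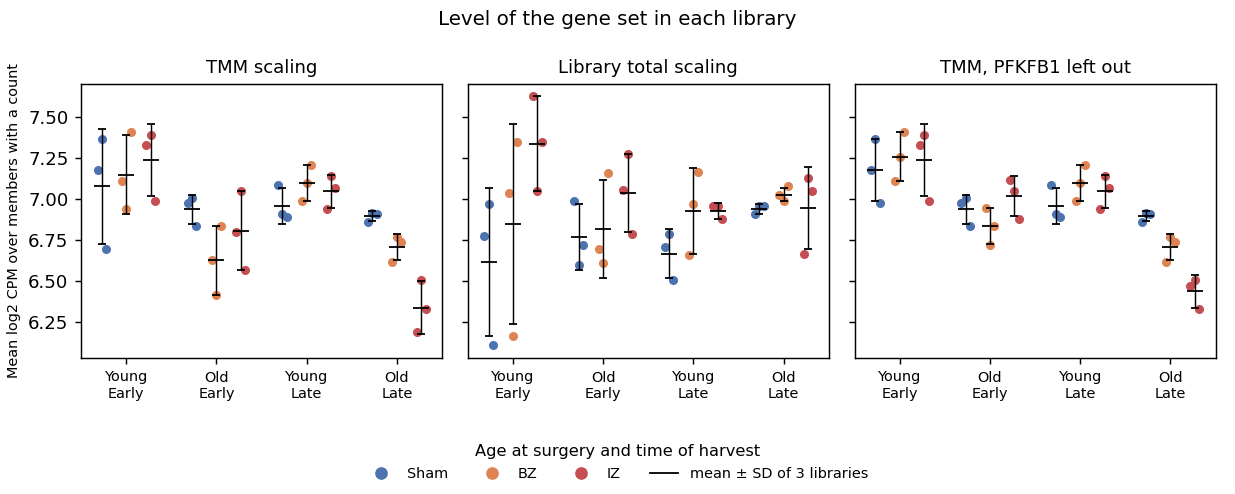
Mean log2 CPM over the members with a count in each library, with 1 point per library and the mean ± SD of 3 libraries for sham, border zone (BZ) and infarct zone (IZ), under TMM scaling, under scaling by library total, and under TMM without PFKFB1. Under TMM the Old Late infarct zone (6.19 to 6.51) lies below the Old Late sham hearts (6.86 to 6.92), and under library totals their means are 6.95 and 6.94.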

How the data were processed

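Gene counts were deposited by the authors as 1 table of whole-number counts for 36 libraries. Libraries were TruSeq Stranded mRNA from polyA RNA, read as pairs on a NextSeq per the labels' protocols, and per the submitters' processing notes the tools were bcl2fastq 2.19.0.316, Trimmomatic 0.36, STAR and featureCounts of Subread 1.5.1. The strand setting and the genome build are not given in the sources used here. Coordinates are those of the table, and 98.7% of 13707 genes with a single match overlap their RefSeq Sscrofa11.1 interval. Symbols were looked up from the table's gene IDs in a separate table of gene names, which gave 14857 of 25880 rows a symbol. The members and gene lists were chosen with earlier results of these data known.

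Genes were filtered with edgeR's filterByExpr (count minimum 10, total minimum 15), scaled by TMM and fitted in R 4.3.3 with edgeR 4.0.16 quasi-likelihood models: 12 group means over 36 libraries (24 residual degrees of freedom), and, for infarct against border zone, an animal block (8). In the fit of group means the infarct and border zone libraries of a pig entered as independent. The limma-voom alternative, with the animal as a block, put the correlation between libraries of a pig at 0.378. The pairing comes from pig numbers in the titles, since both zones were cut from the same heart. Replicate numbers follow accession order and pair nothing. Standard errors are the log2 fold change divided by the square root of F. Group means and SD use CPM over 3 libraries, and the level uses log2 CPM with a prior count of 2. Alternatives were DESeq2 1.42.0, limma 3.58.1 (voom), other scalings (DESeq2 size factors, no mitochondrial genes, and library totals, the last added after seeing the data), no filter, covariates, and leaving out each library. By the rule for named genes, all 36 members are accounted for, and full statistics go to the up to 5 members that rose most and 5 that fell most against sham, the up to 4 that changed most in other comparisons, and a panel of isozymes, of which the text prints a part. Other called members are also named. On simulated counts, 37% of genes changed by a log2 fold of 1 and 89% of those changed by 2 were recovered in the Young Early infarct zone against sham (14227 genes). For Old against Young response in the Late infarct zone the shares were 17% and 59% (14236 genes), so smaller differences could go undetected. The simulation changed 100 genes by each size in 1 group, kept all other means equal between groups and drew no pig effect. In the data 3956 of 14537 genes passed in the Young Early infarct zone against sham, so the simulated shares need not hold there.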

Additional observations from a re-analysis of the deposited data

Results flagged for a closer look

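A difference between the responses of Old and Young hearts, tested as an interaction by edgeR's quasi-likelihood test with Benjamini-Hochberg adjustment over all genes, singled out 4 members. In the Early infarct zone the PFKL response was more positive in Old hearts by 1.41 on the log2 scale, a call lost in 5 of 8 alternatives, among them the animal block, the preparation batch and the integrity number, and in 10 of 12 fits that left out 1 library. In the Late infarct zone the responses of HK1 (-1.10), SLC2A4 (-1.77) and PYGB (-1.65) were more negative in Old hearts, and these calls were lost under library totals. In fits that left out 1 library, SLC2A4 and PYGB were each lost in 4 of 12 and HK1 in 6 of 12. Batch and age cannot be told apart in the Early or the Late groups. Each group has 3 pigs, and no weighing of causes was made.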

How the results depend on the processing

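Of 134 calls of a member, 0 changed direction and 62 kept their side of the threshold in all alternatives other than library totals. Library totals in place of TMM reversed 2 calls in the Old Late infarct zone, PGK1 (0.01) and GYS1 (0.18), ended 38 and kept 94, so that 55 were kept throughout. Library totals for the calls, the 5 rows at members' positions and leaving PFKFB1 out of the mean were added after seeing the data. The larger changes in the count of 31 members called were as follows, with the number of all genes called in brackets after it. Smaller changes of this count also occurred and are not listed, so a comparison left out here need not be unchanged. All genes tested were 14537, or 14386 for infarct against border zone. DESeq2 gave 2 (557) in the Young Early border zone (from 0) and 8 (1015) in Old Late infarct against border zone (from 4). For Old minus Young responses DESeq2 gave 3 (940) in the Early (from 1) and 6 (1051) in the Late infarct zone (from 3). In the Early and Late border zone responses it gave 1 (591) and 1 (596), each from 0. Library totals gave 17 (4733) in Young Early infarct against border zone and 0 for the Early (0) and the Late (210) infarct zone response. They gave 8 (3893) for Early sham age and 3 (633) for Young sham time. No count filter, with 20305 genes tested, gave 0 (5) for the Early infarct zone response and 2 (1229) for Late sham age. The integrity number as a covariate gave 0 (0) for the Early infarct zone response, 3 (1403) and 0 (133) for Early and Late sham age and 3 (597) for Young sham time. With the preparation batch as a term the Early infarct zone response gave 0 (5) and Early sham age 5 (1400). The batch term could not be fitted for Late sham age or Old sham time, since the Old Late libraries, and no others, were prepared in batch 3. With the replicate block dropped, infarct against border zone gave 6 (355) in Young Early (from 10) and 1 (5) in Old Late hearts (from 4), and 0 (0) there with the other animal label. The voom fit with the animal as a block (correlation 0.378) gave 0 (0) and 5 (440) for the Early and Late infarct zone responses and 3 (596) for Young sham time. Adding the 5 rows at members' positions gave 1 for the Late border zone response. Leaving out each library or pair gave, for infarct zone against sham, 12 to 18 (Young Early), 12 to 16 (Old Early), 7 to 11 (Young Late) and 15 to 20 (Old Late), and for border zone 0 to 4, 4 to 8, 2 to 9 and 6 to 12. Infarct against border zone gave 5 to 10, 0 to 1, 0 to 0 and 0 to 0, and the Old minus Young responses 0 to 4 (Early infarct zone), 0 to 5 (Late infarct zone), 0 to 6 (Early border zone) and 0 to 1 (Late border zone). Sham age gave 4 to 11 (Early) and 0 to 4 (Late), and sham time 2 to 9 (Young) and 0 to 0 (Old). The lowest infarct zone counts came without Old Late IZ replicate 3, Young Late Sham replicate 3, Old Early Sham replicate 2 and Young Early IZ replicate 3. Library totals moved the median of all genes by -0.21 to 0.61. Leaving out mitochondrial genes moved the median of all genes by 0.12 in the Late infarct zone response, and voom moved it by -0.11 in the Young Early border zone. The library with the fewest counts, 8.11 M, and groups of 3 limit what could be detected.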
